A study of Homo sapiens with 12 samples.

Results

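The genes described are 10 genes of Wnt signaling: the ligands WNT2B and WNT5A, the R-spondin RSPO3, the receptors LGR4, LRP5 and LRP6, the inhibitor DKK1, the ubiquitin ligase ZNRF3, the scaffold AXIN2 and the transcription factor TCF7L2. They were picked by symbol from the 23106 symbols in each count file. All 10 have a row, and 9 of the 10 had enough counts to enter the test across genes, with DKK1 left out at 6 counts over all libraries. Because the 10 genes were picked with their changes in these same libraries known, their levels and fold changes are a description, and no p-value is given for them. Another 100 genes of the pathway, also listed with earlier results of these data known, were grouped by role to show how the rest of it behaved.

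Bulk RNA-seq was performed on RCC4 cells 48 h after transfection. The RCC4 line comes from a human clear cell renal cell carcinoma (ccRCC) and lacks functional VHL, the ubiquitin ligase subunit that normally marks the HIF-1α and HIF-2α proteins for degradation, so both are present at ordinary oxygen. All cells were grown in high-glucose DMEM at 21% oxygen and received 2 nM of siRNA pools in total. The control siRNA group received 2 nM control siRNA, the HIF1A siRNA group 1 nM HIF1A siRNA with 1 nM control siRNA, and the HIF2A siRNA group 1 nM siRNA against EPAS1 (the gene for HIF-2α) with 1 nM control siRNA. The double knockdown received 1 nM of each HIF siRNA and no control siRNA. There were 3 replicates per group and 12 libraries, all from 1 cell line, so differences between groups are those of this line only. Each target was silenced with 1 pool, and effects of a pool beyond its target cannot be told apart from those of its target.

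Wnt ligands are secreted, lipid-modified glycoproteins. In the canonical pathway they bind a Frizzled receptor together with LRP5 or LRP6, which inhibits the complex of AXIN, APC and GSK3 that otherwise destines beta-catenin for destruction, and stabilized beta-catenin then activates genes through TCF/LEF factors such as TCF7L2. R-spondins do not activate the pathway by themselves. They bind LGR receptors and the ubiquitin ligases ZNRF3 and RNF43, which otherwise clear Frizzled from the cell surface, and so potentiate the response to Wnt. WNT2B is usually classed as a canonical ligand, whereas WNT5A acts mainly through non-canonical routes with ROR receptors. In the kidney, Wnt signaling is known for its part in forming the nephron during development.

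The proximal promoters of the 3 genes whose levels differed most between groups are shown because HIF binds DNA at a short core motif. Each stretch is the 250 bases before an annotated start, from RefSeq on build GRCh38.p14, 5′ to 3′ on the strand of the gene, with the HIF core (ACGTG or GCGTG on either strand) in capitals. WNT2B and WNT5A have another annotated start each, and for both the stretch shown is the one that holds the core. The count files were made on hg19, and no position was carried between builds.

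WNT2B, chr1:112508715-112508964, plus strand: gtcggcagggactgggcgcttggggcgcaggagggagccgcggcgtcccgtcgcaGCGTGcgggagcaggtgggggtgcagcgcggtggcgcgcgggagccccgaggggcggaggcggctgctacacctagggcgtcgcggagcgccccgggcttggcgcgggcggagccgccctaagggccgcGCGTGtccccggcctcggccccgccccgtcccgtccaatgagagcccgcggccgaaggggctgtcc
RSPO3, chr6:127118421-127118670, plus strand: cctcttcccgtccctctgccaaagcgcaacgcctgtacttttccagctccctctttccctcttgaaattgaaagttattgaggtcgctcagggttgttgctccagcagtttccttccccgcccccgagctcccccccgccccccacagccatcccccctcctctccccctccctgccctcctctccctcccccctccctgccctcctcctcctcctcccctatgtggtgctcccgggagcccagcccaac
WNT5A, chr3:55487307-55487556, minus strand: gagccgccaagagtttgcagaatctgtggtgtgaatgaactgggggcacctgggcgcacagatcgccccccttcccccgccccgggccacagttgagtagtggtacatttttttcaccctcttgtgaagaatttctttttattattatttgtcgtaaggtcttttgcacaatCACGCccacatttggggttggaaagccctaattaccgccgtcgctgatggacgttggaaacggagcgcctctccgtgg

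The WNT2B stretch is that of the more downstream of its 2 annotated starts and holds the core 2 times, 195 and 66 bases before the start. The stretch at the other WNT2B start holds none. The RSPO3 stretch holds none. The WNT5A stretch shown holds the core 1 time on the opposite strand, 78 bases before the start, and the one at the other WNT5A start holds none. The table of promoters has 7 of the 10 genes with 11 starts, and 4 of the 11 stretches hold the core, in WNT2B, LGR4, WNT5A and TCF7L2. The core occurs in 43.2% of all 35116 promoters of this length and in 54.8% of the 13885 promoters of genes tested here, so a match is common. A TCF/LEF motif (CTTTGAA, where each of the last bases may be A or T, on either strand) occurs in 2 of the 11 stretches, in DKK1 and TCF7L2, and in 12% of all promoters. Among the promoters of genes tested here, which leave out DKK1, it occurs in 8.1%. LRP6, AXIN2 and ZNRF3 have no entry. Whether any factor occupied these sites was not measured in these libraries.

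Libraries held 13263168 to 20451433 counts, so 3 counts correspond to 0.146 to 0.226 CPM. The CPM of a gene is its count scaled to a common library total, with the library size adjusted by its TMM factor. HIF1A was at 58.2 to 120 CPM with control siRNA, 15.0 to 22.2 CPM with HIF1A siRNA, and 24.2 to 32.2 CPM in the double knockdown. EPAS1 was at 138 to 171 CPM with control siRNA, 9.16 to 11.9 CPM with HIF2A siRNA and 7.01 to 11.3 CPM in the double knockdown. Each siRNA thus lowered its target in all 3 replicates. EPAS1 was also lower with HIF1A siRNA, at 101 to 134 CPM, where it reached 72.2% of its level with control siRNA. Every fold change below comes from a fit with the replicate number as a block, as in the study's methods. RNA was measured in bulk, where a larger share of cells with a transcript and more of it per cell cannot be told apart.

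WNT2B, a Wnt ligand, was higher where EPAS1 was silenced and highest in the double knockdown. With control siRNA it was at 7.79, 8.08 and 3.66 CPM in replicates 1, 2 and 3 (127, 161 and 59 counts). With HIF1A siRNA it was at 4.66, 6.04 and 10.7 CPM. With HIF2A siRNA it was at 9.80, 15.7 and 13.1 CPM, and in the double knockdown at 14.5, 20.2 and 19.4 CPM. The 3 libraries with HIF2A siRNA lay above the 3 controls, and so did those of the double knockdown, whereas the libraries with HIF1A siRNA overlapped the controls. The fitted log2 fold change was 0.94 ± 0.31 (SE) for HIF2A siRNA and 1.43 ± 0.30 for the double knockdown, which is 2.70-fold, with a 95% interval of 1.73-fold to 4.23-fold. For HIF1A siRNA it was 0.10 ± 0.31, with WNT2B lower in replicates 1 and 2 and higher in replicate 3. This value was -0.58 without replicate 3 and 0.56 without replicate 1, so HIF1A siRNA alone gave no stable direction. The value for HIF2A siRNA was 0.53 without control siRNA replicate 3, the library in which WNT2B was lowest.

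WNT2B overlaps a gene on the opposite strand. In GENCODE 44, 2665 of the 12374 exonic bases of WNT2B are shared with ST7L, named here for this overlap. Whether the authors' hg19 gene models overlap likewise, and whether their counting used strand, is not given in the sources used here, so reads of both genes may not be fully separated. ST7L was at 11.5 to 15.8 CPM with control siRNA, 15.3 to 16.9 CPM with HIF1A siRNA, 17.4 to 21.6 CPM with HIF2A siRNA and 19.8 to 25.8 CPM in the double knockdown. Its log2 fold change in the double knockdown was 0.65 ± 0.14 (adjusted p = 0.0079, edgeR quasi-likelihood test with Benjamini-Hochberg adjustment). With HIF2A siRNA and in the double knockdown, both genes were higher than with control siRNA in 3 of 3 replicates. The fold was larger for WNT2B in both cases. With HIF1A siRNA, ST7L was higher in 3 of 3 replicates (log2 0.23 ± 0.14), whereas WNT2B was lower in replicates 1 and 2. The part of shared reads in either value was not tested.

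WNT5A, a ligand best known for non-canonical signaling, was lower where WNT2B was higher. With control siRNA it was at 9.75, 9.54 and 9.36 CPM, the narrowest spread among the 10 genes relative to its level. With HIF1A siRNA it was at 7.26, 9.71 and 6.13 CPM, with HIF2A siRNA at 6.00, 6.30 and 5.14 CPM, and in the double knockdown at 3.24, 4.81 and 3.70 CPM (64, 64 and 76 counts). The libraries with HIF2A siRNA and those of the double knockdown lay below all controls, and the double knockdown also lay below all libraries with HIF2A siRNA. The log2 fold change was -0.33 ± 0.21 for HIF1A siRNA, -0.72 ± 0.21 for HIF2A siRNA and -1.30 ± 0.22 for the double knockdown. WNT5A in the double knockdown was at 40.5% of its control level, with a 95% interval of 0.294-fold to 0.559-fold. Within replicates 1, 2 and 3 the log2 ratio to control was -1.46, -0.92 and -1.23.

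The ratio of the 2 ligands within a library does not depend on how libraries are scaled. It was taken per kilobase of the canonical transcripts in GENCODE 44 (11130 bases for WNT2B and 5841 for WNT5A), and these lengths set where it crosses 1. The ratio of WNT2B to WNT5A was 0.419, 0.445 and 0.205 with control siRNA in replicates 1, 2 and 3. Under HIF1A siRNA it was 0.337, 0.327 and 0.916, under HIF2A siRNA 0.857, 1.30 and 1.34, and for the double knockdown 2.35, 2.20 and 2.76. Per kilobase, WNT5A was thus above WNT2B in every library with control or HIF1A siRNA, and WNT2B was above WNT5A in every library of the double knockdown. With HIF2A siRNA WNT2B was above WNT5A in replicates 2 and 3 and below it in replicate 1. In counts not scaled by length, the ratio was 1.75 in HIF1A siRNA replicate 3 and 1.63 in HIF2A siRNA replicate 1. The order in these libraries thus depends on the lengths used.

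RSPO3, the R-spondin, was close to the limit of detection, so its counts are given first. With control siRNA it had 6, 2 and 0 counts in replicates 1, 2 and 3. With HIF1A siRNA it had 36, 33 and 6 counts, with HIF2A siRNA 31, 2 and 10, and in the double knockdown 38, 22 and 15. The double knockdown lay above all controls, whereas the libraries with either single siRNA overlapped them. Replicate 3 held the fewest RSPO3 counts in every group except HIF2A siRNA, where replicate 2 held the fewest and was at the level of its control. In CPM, RSPO3 averaged 0.156 ± 0.190 (SD, n = 3) in the controls and 1.44 ± 0.625 in the double knockdown. In the control library without a count, up to 3 counts, or 0.186 CPM, are compatible with the depth. The log2 fold change was 3.29 ± 0.97 for HIF1A siRNA, 2.40 ± 0.99 for HIF2A siRNA and 3.35 ± 0.97 for the double knockdown. Over the alternatives tried the value for HIF1A siRNA ran from 2.49 without HIF1A siRNA replicate 2 to 4.29 without replicate 1, and that for HIF2A siRNA from 1.82 without replicate 3 to 3.33 without control siRNA replicate 1. The 95% interval for the double knockdown ran from 2.43-fold to 42.8-fold, so the size of the change is poorly determined. The controls held 8 RSPO3 counts in all, against 75 in the double knockdown. With under 10 counts in every control library, RSPO3 entered the test only through the siRNA groups, where it was higher. Its fold changes, intervals and calls are conditional on that.

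**Figure D1:**
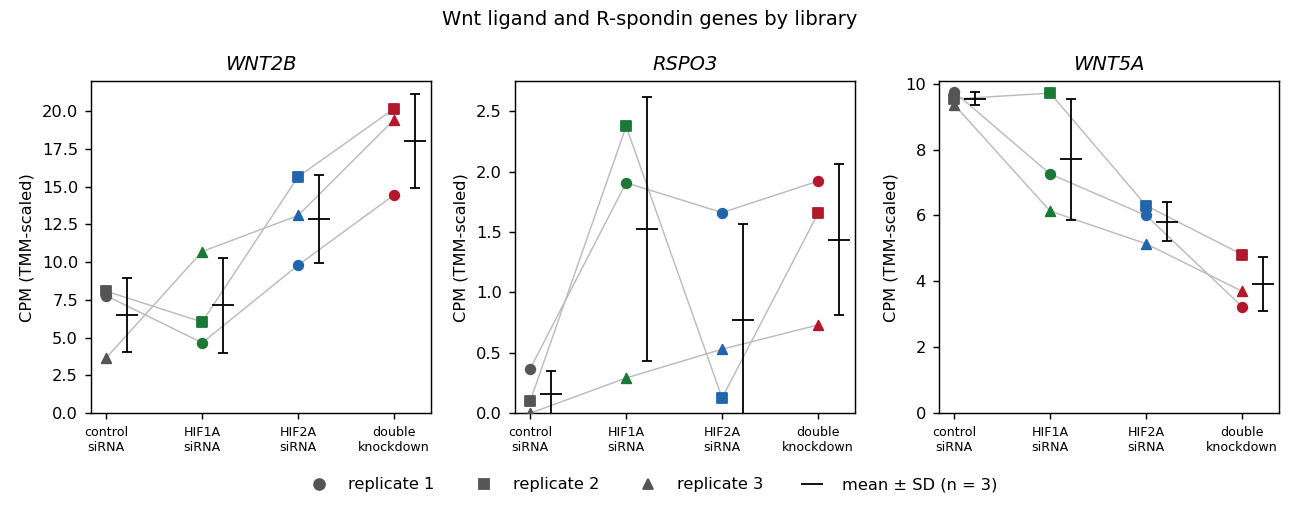
Levels of WNT2B, RSPO3 and WNT5A in CPM (linear axes from 0) in the 12 libraries, by siRNA group. Points are libraries, lines join a replicate number across groups, and the bars beside them are the mean ± SD of 3 replicates. WNT2B in the double knockdown sits between 14.5 and 20.2 CPM, above every control, WNT5A between 3.24 and 4.81 CPM, below every control, and RSPO3 stays under 2.5 CPM throughout.

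The receptors showed another pattern, in which libraries differed by replicate number more than by siRNA. LGR4, the R-spondin receptor, was at 64.9, 48.9 and 77.9 CPM with control siRNA, 48.4, 56.4 and 102 CPM with HIF1A siRNA, 50.5, 65.3 and 93.2 CPM with HIF2A siRNA, and 50.7, 44.9 and 104 CPM in the double knockdown. Replicate 3 was the highest in every group, and the groups overlapped. Its log2 fold change in the double knockdown was -0.03 ± 0.16, with a 95% interval from 0.774-fold to 1.24-fold. LRP6, a co-receptor that is phosphorylated on binding of Wnt, was at 103 to 113 CPM in replicate 3 and at 50.5 to 82.4 CPM in replicates 1 and 2 of the 4 groups. Its log2 fold change in the double knockdown was 0.00 ± 0.15. LRP5, the related co-receptor, was at 25.5 to 42.5 CPM over all libraries, and its log2 fold change was -0.08 ± 0.14. With single siRNAs, the log2 fold changes of LGR4, LRP5 and LRP6 lay between -0.01 and 0.19.

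ZNRF3, the ligase that removes Frizzled and LRP6 from the membrane and is itself bound by R-spondin and LGR, was at 29.8 to 35.4 CPM in replicate 3 and 20.3 to 26.4 CPM in replicates 1 and 2. Its group means were 27.3, 27.0, 27.1 and 25.8 CPM with control siRNA, HIF1A siRNA, HIF2A siRNA and in the double knockdown. The log2 fold change in the double knockdown was -0.06 ± 0.15, with a 95% interval from 0.774-fold to 1.19-fold. AXIN2, a scaffold of the destruction complex whose gene is a common readout of beta-catenin activity, had 13 to 50 counts per library. It was at 0.797, 2.31 and 2.91 CPM with control siRNA and at 0.758, 2.11 and 1.85 CPM in the double knockdown, with full overlap. Its log2 fold change was 0.00 ± 0.41 for HIF1A siRNA, -0.34 ± 0.42 for HIF2A siRNA and -0.33 ± 0.42 for the double knockdown. The 95% interval of the latter ran from 0.427-fold to 1.48-fold, so at this depth a fall to 0.427-fold and a rise to 1.48-fold were both within the error.

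TCF7L2, the DNA-binding partner of beta-catenin, was at 13.7, 16.3 and 12.8 CPM with control siRNA, 18.2, 18.9 and 11.9 CPM with HIF1A siRNA, 16.9, 15.3 and 15.0 CPM with HIF2A siRNA and 20.4, 21.9 and 15.5 CPM in the double knockdown. It was higher than its control within each of the 3 replicates of the double knockdown, although the groups overlapped. The log2 fold change there was 0.42 ± 0.16, with a 95% interval from 1.06-fold to 1.69-fold. DKK1, a secreted antagonist that binds LRP5 and LRP6, had 2 counts in control siRNA replicate 2, 1 in HIF1A siRNA replicate 2, 3 in double knockdown replicate 1 and 0 in the other 9 libraries. No change of DKK1 was detectable at this depth.

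**Figure D2:**
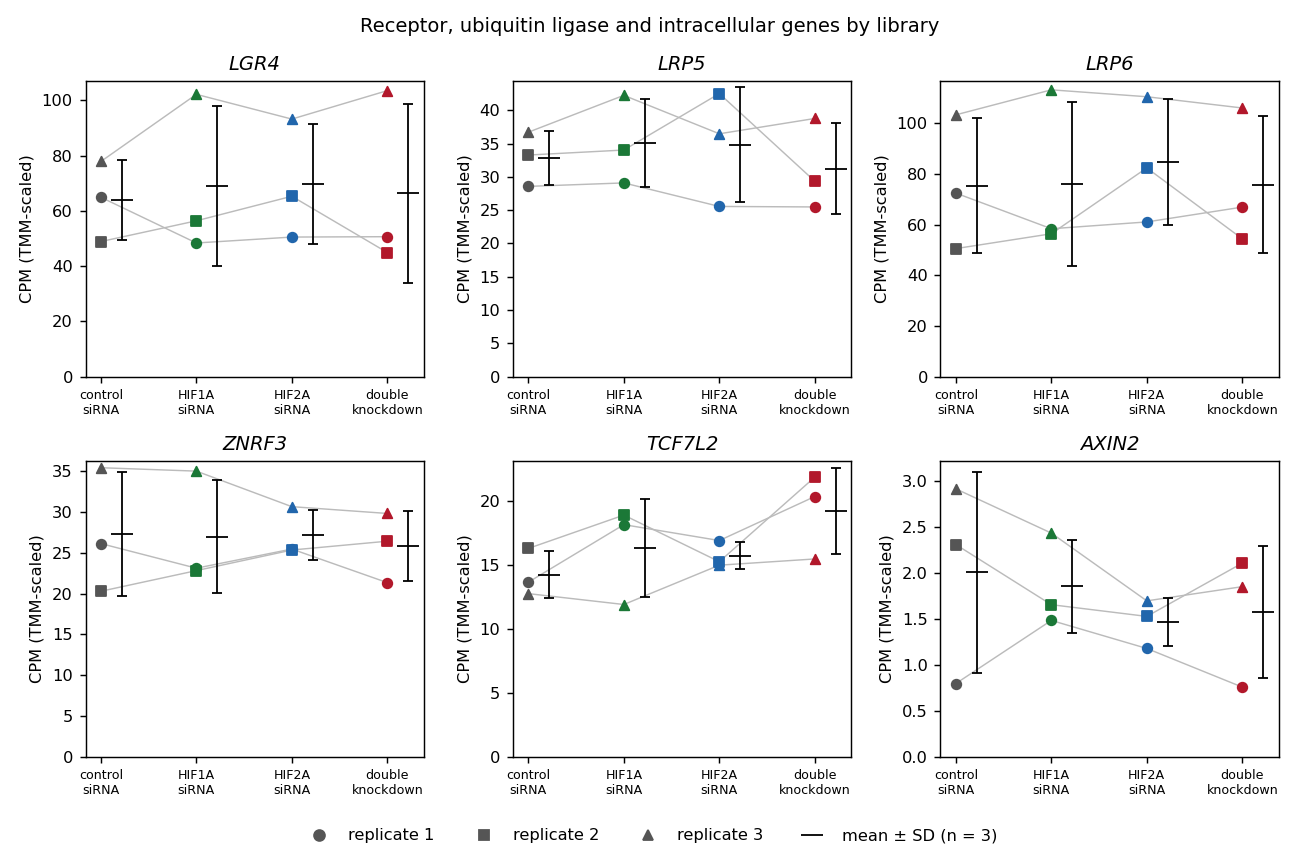
Levels of LGR4, LRP5, LRP6, ZNRF3, TCF7L2 and AXIN2 in CPM (linear axes from 0) in the 12 libraries, by siRNA group. Points are libraries, lines join a replicate number across groups, and bars are the mean ± SD of 3 replicates. For LGR4, LRP6 and ZNRF3 the triangles of replicate 3 lie above the others in all 4 groups, and the group means stay close to each other.

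Splitting the sum of squares of log2 CPM into siRNA, replicate number and the rest separates these patterns. For WNT5A, 86.5% lay between siRNA groups, for WNT2B 72.2% and for RSPO3 50.5%. TCF7L2 followed with 36.3%. For LGR4, LRP5, LRP6, AXIN2 and ZNRF3 the share between siRNA groups was 1.27 to 7.95% and that between replicate numbers 67.7 to 82.6%. The median gene tested had 19.2% between siRNA groups and 46.4% between replicate numbers. These shares describe the 12 libraries, and the members were picked knowing how they changed.

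Counts of genes past the threshold (adjusted p under 0.05, edgeR quasi-likelihood test with Benjamini-Hochberg adjustment over 13000 genes) are given with the share of all genes that passed. Of the 9 tested members, 3 passed in the double knockdown (WNT2B and RSPO3 higher, WNT5A lower), beside 10.3% of all genes (3.86% higher, 6.42% lower). With HIF1A siRNA 0 of 9 passed, beside 1.39% of all genes, and 1 member had an unadjusted p under 0.05, beside 8.61% of all genes. With HIF2A siRNA 0 of 9 passed, beside 0.2% of all genes, and 3 had an unadjusted p under 0.05, beside 6.68% of all genes. Nothing is read from these counts, since the genes were chosen on the same contrasts. DESeq2 in place of edgeR gave 1, 0 and 3 members for HIF1A siRNA, HIF2A siRNA and the double knockdown, with RSPO3 the member passing for HIF1A siRNA. Without the replicate block 1 member passed in the double knockdown. The alternatives refit the same libraries, so they describe how far a call depends on the settings and give no further support for it. WNT2B passed in 21 of 22 alternative analyses of the double knockdown, failing without the block. WNT5A also passed in 21 of 22, failing without replicate 3. RSPO3 passed in 12 of 21, and was not fitted where every library had to hold at least 10 counts. It failed without the block, without replicate 1 or 3, and when any single library of the control siRNA or double knockdown groups was left out, with a log2 fold change between 3.04 and 4.36 over all alternatives. Libraries of the double knockdown did not overlap the controls for 3 members, beside 15.6% of all genes, and those with HIF2A siRNA did not for 2 members (WNT2B and WNT5A), beside 5.31%. With HIF1A siRNA no member was without overlap, beside 7.1%.

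**Figure D3:**
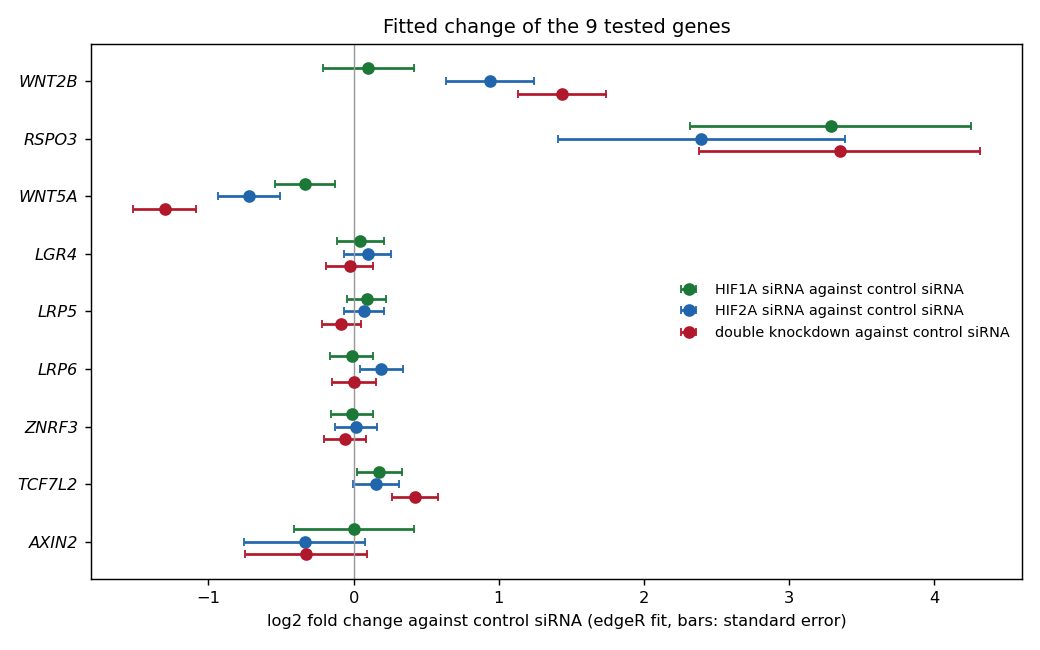
Fitted log2 fold change against control siRNA of the 9 tested members (horizontal axis) for HIF1A siRNA, HIF2A siRNA and the double knockdown. Points are edgeR estimates and bars are ± 1 SE. WNT2B (0.10, 0.94 and 1.43) and WNT5A (-0.33, -0.72 and -1.30) spread in opposite directions, the RSPO3 bars are the widest, and the 5 genes LGR4, LRP5, LRP6, ZNRF3 and AXIN2 lie within 0.34 of no change.

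The double knockdown was also set beside each single one in the same fit. WNT2B was 2.52-fold higher in the double knockdown than with HIF1A siRNA (log2 1.33 ± 0.30) and 1.41-fold higher than with HIF2A siRNA (log2 0.49 ± 0.29), and it was higher in 3 of 3 replicates in both cases. WNT5A had a log2 fold change of -0.97 ± 0.22 against HIF1A siRNA and of -0.58 ± 0.22 against HIF2A siRNA, and was lower in 3 of 3 replicates in both. RSPO3 differed from HIF1A siRNA by 0.06 ± 0.69 and from HIF2A siRNA by 0.95 ± 0.72. Of the 2 single siRNAs compared directly, WNT2B had the lower level under HIF1A siRNA in 3 of 3 replicates (log2 -0.84 ± 0.30), but the libraries overlapped. With edgeR 0 of the 9 members passed in this comparison, beside 1.92% of all genes, and 1 had an unadjusted p under 0.05, beside 12.1% of all genes. DESeq2 also called 0 members. The interaction, which asks whether the double knockdown departs from the sum of the single ones on the log2 scale, was 0.39 ± 0.43 for WNT2B, -0.25 ± 0.30 for WNT5A and -2.34 ± 1.21 for RSPO3. It passed the edgeR threshold for 0 of 9 members, with 0 of them at an unadjusted p under 0.05, and for 0 of 13000 genes, 318 of which (2.45%) had an unadjusted p under 0.05. With DESeq2 it passed for 11 genes, none of them a member. The interval of the interaction for WNT2B, from -0.52 to 1.31, leaves room for sizeable departures in either direction.

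Between the members, levels were compared as CPM per kilobase of the canonical transcript in GENCODE 44, which is newer than the authors' gene models. With control siRNA, LGR4 was highest at 12.2 ± 2.77 (SD, n = 3), followed by LRP6 at 7.36 ± 2.59, LRP5 at 6.35 ± 0.789, ZNRF3 at 3.97 ± 1.11 and TCF7L2 at 3.50 ± 0.451. The member ligands were lower, with WNT5A at 1.63 ± 0.0329 and WNT2B at 0.585 ± 0.222. AXIN2 was at 0.471 ± 0.256, RSPO3 at 0.0324 ± 0.0395 and DKK1 at 0.0185 ± 0.0321. LGR4 and LRP6, LRP6 and LRP5, LRP6 and ZNRF3, ZNRF3 and TCF7L2, WNT2B and AXIN2, and RSPO3 and DKK1 overlapped between libraries and were not separated by their spread. The order of WNT2B and WNT5A changed in the double knockdown, with WNT2B at 1.62 ± 0.279 and WNT5A at 0.671 ± 0.139 CPM per kilobase. WNT5B, a ligand that is not a member, was far above both in CPM not scaled by length. It was at 166 to 227 CPM with control siRNA and 135 to 144 CPM in the double knockdown. The value of WNT2B rests on a transcript of 11130 bases. RSPO3 reached 0.298 ± 0.130 in the double knockdown, where AXIN2 was at 0.369 ± 0.168 and the libraries of both overlapped.

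Among the remaining 100 pathway genes, 65 entered the test. Of 19 Wnt ligands in all, 8 were tested, and 5 had 0 counts in every library. Of the R-spondins and LGR receptors, RSPO3 and LGR4 alone were tested. RSPO1, RSPO2 and RSPO4 had 0 counts in all 12 libraries, LGR5 at most 1 and LGR6 at most 5. Of 16 receptors and co-receptors 14 were tested, of 19 genes of the Dishevelled and destruction complex group all 19, and of 12 nuclear effectors 11. Of 16 secreted and surface inhibitors 5 were tested. Most listed receptors and co-receptors and intracellular genes thus entered the test, but fewer ligands and inhibitors did. Entry is not the same as presence of RNA, since WNT3A entered with 65 counts over all libraries and WNT9A did not with 45.

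Of the 65, 11 (16.9%) passed in the double knockdown (3 higher, 8 lower), beside 10.3% of all genes. The list was drawn up with earlier results of these data known, so its counts and adjusted p-values are a description. The median log2 fold change of the 65 was -0.02, beside 0.00 over all genes tested. Adjusted p-values are from the edgeR quasi-likelihood test with Benjamini-Hochberg adjustment. CCND1, the cell cycle gene for cyclin D1, fell, with 330 to 606 CPM in the controls and 170 to 320 CPM in the double knockdown and no overlap (log2 -0.95 ± 0.10, adjusted p = 1.8e-05). DKK3, a divergent member of the Dickkopf family, fell to 60.3% of its control level (log2 -0.73 ± 0.13, adjusted p = 0.00183). It was lower in 3 of 3 replicates, but its libraries overlapped the controls, at 16.4 to 35.0 CPM against 31.8 to 51.2 CPM.

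Frizzled receptors differed among themselves. FZD1 (log2 -0.57 ± 0.13), FZD6 (-0.54 ± 0.10) and FZD7 (-0.49 ± 0.13) fell, with adjusted p-values of 0.0104, 0.0027 and 0.0246 in the edgeR test. The FZD1 libraries overlapped the controls, at 24.7 to 44.5 CPM against 30.9 to 69.4 CPM, although FZD1 was lower in 3 of 3 replicates. FZD5, another Frizzled receptor, rose, with 7.33 to 10.6 CPM in the controls and 13.0 to 15.6 CPM in the double knockdown (log2 0.76 ± 0.18, adjusted p = 0.017, edgeR). WNT5B, the paralog of WNT5A, fell, with 166 to 227 CPM in the controls and 135 to 144 CPM in the double knockdown (log2 -0.49 ± 0.12, adjusted p = 0.0141, edgeR). PORCN, the acyltransferase that lipidates Wnt ligands, fell with a log2 fold change of -0.48 ± 0.12 (adjusted p = 0.0192, edgeR). VANGL1, a planar polarity protein, fell (log2 -0.38 ± 0.11), and PRICKLE1, another planar polarity gene, rose (0.57 ± 0.17), as did TLE1, a corepressor of TCF factors (0.55 ± 0.15). The PRICKLE1 libraries overlapped the controls, at 47.2 to 130 CPM against 35.3 to 64.9 CPM. None of the 18 further genes of the Dishevelled and destruction complex group passed, with 3 at an unadjusted p under 0.05, beside 25.3% of all genes. Their log2 fold changes ranged from -0.43 to 0.31, and DESeq2 called none of them.

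The count of 11 was 0 without the replicate block. It was 7 and 5 without control siRNA replicate 2 or 3, and 4, 5 and 5 without double knockdown replicate 1, 2 or 3. Without replicate number 1 or 3 it was 5 or 2. CCND1 and DKK3 passed in 21 of 22 alternatives, FZD6 in 20, FZD1 and WNT5B in 17 and PORCN in 16. FZD5 and FZD7 passed in 14, TLE1 in 13, PRICKLE1 in 11 and VANGL1 in 9. FZD5, FZD7, TLE1 and VANGL1 no longer passed when any 1 library of the double knockdown was left out. With HIF2A siRNA alone 1 of the 65 passed, beside 0.2% of all genes. This was CCND1 (log2 -0.64 ± 0.10, adjusted p = 0.0128, edgeR). Its libraries overlapped the controls, at 188 to 413 CPM against 330 to 606 CPM. CCND1 passed there in 15 of 23 alternatives. It failed without the block, in fits of 9 or 6 libraries and without replicate number 1 or 3. It also failed without control siRNA replicate 3 or HIF2A siRNA replicate 1 or 3. Without control siRNA replicate 1 the count was 3. With HIF1A siRNA 0 of 65 passed, beside 1.39% of all genes, and 5 had an unadjusted p under 0.05, beside 8.61% of all genes. DESeq2 called 2, DKK3 and WNT5B, and so did edgeR without HIF2A siRNA replicate 2.

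Between the single siRNAs, 4 of the 65 differed, beside 1.92% of all genes. CCND1 (log2 0.67 ± 0.10, adjusted p = 0.00117, edgeR) and PORCN (0.67 ± 0.12, adjusted p = 0.00543, edgeR) had the higher level under HIF1A siRNA. PRICKLE1 (-1.01 ± 0.17, adjusted p = 0.00454, edgeR) and WNT5B (-0.49 ± 0.12, adjusted p = 0.0424, edgeR) were lower. PRICKLE1 was at 29.6 to 68.5 CPM with HIF1A siRNA and at 58.4 to 118 CPM with HIF2A siRNA, lower in 3 of 3 replicates. The CCND1 libraries also overlapped, at 313 to 634 CPM with HIF1A siRNA and 188 to 413 CPM with HIF2A siRNA. PRICKLE1 passed in 21 of 23 alternatives, CCND1 in 20 and PORCN in 19, but WNT5B in 9. The 4 became 1 without HIF1A siRNA replicate 1 and 0 without the replicate block.

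**Figure D4:**
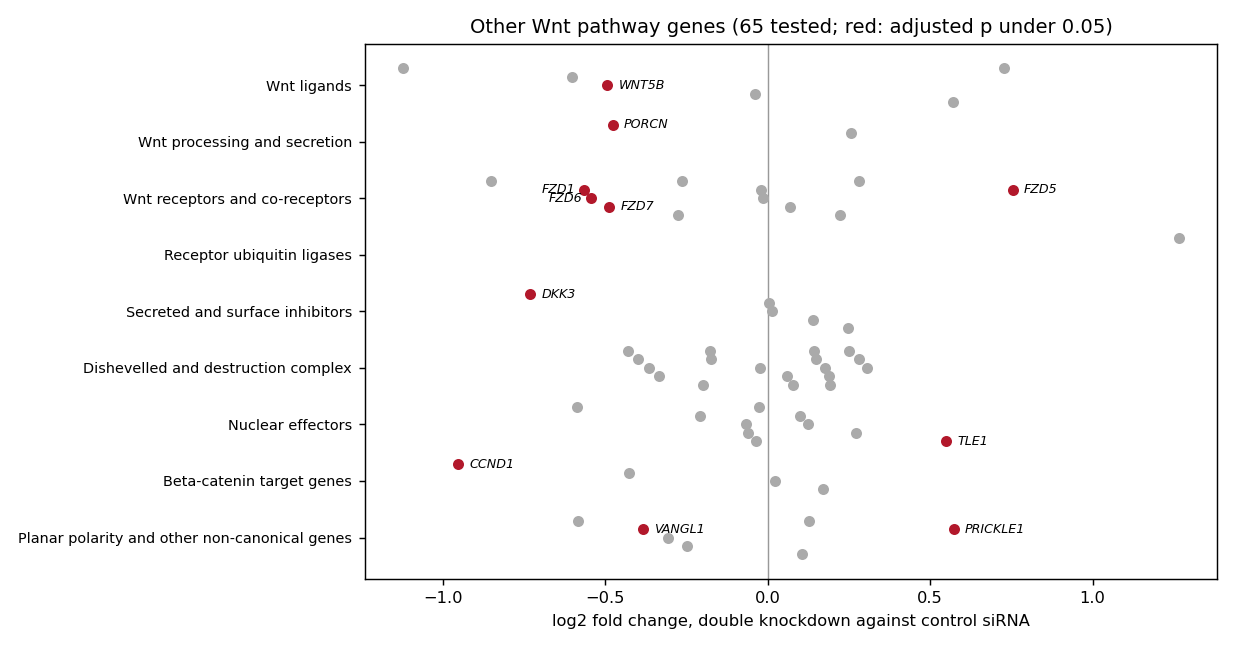
Log2 fold change of the 65 other tested Wnt pathway genes in the double knockdown against control siRNA (horizontal axis), in rows by role, each gene drawn in 1 row. Red points with names are the 11 genes with an adjusted p under 0.05 in the edgeR test, from CCND1 at -0.95 to FZD5 at 0.76, and grey points are the others. The destruction complex row holds no red point.

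The genes most like WNT2B and RSPO3 were found by the Pearson correlation of log2 CPM over the 12 libraries after centring on each replicate number. It is a description over libraries that share siRNA groups, among 13000 genes. For WNT2B they were ELF3 (r = 0.96), DYRK1B (0.95), CD24 (0.93), SAMD11 (0.92) and THRB (0.92). ELF3, an epithelial ETS factor, averaged 17.1 ± 1.05 CPM (SD, n = 3) in the controls and 42.6 ± 11.1 CPM in the double knockdown. For RSPO3 they were HAX1 (0.95), FAM92A1 (0.93), SPRTN (0.93), HMGN3 (0.92) and COX11 (0.91), whose own log2 fold changes in the double knockdown were 0.32 to 0.45 against 3.35 for RSPO3.

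RSPO3 and WNT5A are also made by fibroblasts and endothelial cells, so the line was checked against markers. All 9 renal epithelial and ccRCC markers, PAX8 and CA9 among them, were tested. Their summed level was 6065 to 7932 CPM with control siRNA, 5180 to 6504 CPM with HIF1A siRNA and 5184 to 6592 CPM with HIF2A siRNA. In the double knockdown it was 4637 to 5971 CPM, below all controls. Over the libraries VIM ranged from 2928 to 5435 CPM, PAX8 from 197 to 315 CPM and CA9, a HIF target gene, from 6.77 to 405 CPM. None of 6 endothelial markers was tested, PECAM1 was at 0 in every library, and their summed level was 0 to 0.432 CPM. Of 7 fibroblast and pericyte markers 5 were tested, with a summed level of 39.5 to 57.1 CPM with control siRNA, 35.0 to 64.7 CPM with HIF1A siRNA, 42.0 to 100.4 CPM with HIF2A siRNA and 32.9 to 78.0 CPM in the double knockdown, mostly from COL1A1. Over the libraries COL1A1 ranged from 16.6 to 71.1 CPM, ACTA2 from 7.26 to 14.7 CPM, RGS5 from 1.73 to 10.4 CPM, PDGFRB from 0.647 to 8.59 CPM and LUM from 0.216 to 2.16 CPM, whereas DCN had at most 1 count and PDGFRA at most 4. Of 6 immune markers 2 were tested, and PTPRC and CD3E were at 0. The summed immune level was 45.2 to 58.3 CPM with control siRNA, 47.0 to 64.1 CPM with HIF1A siRNA, 33.4 to 60.2 CPM with HIF2A siRNA and 52.4 to 65.5 CPM in the double knockdown, mostly from CD68, a lysosomal protein, at 32.6 to 65.1 CPM. The summed fibroblast and immune levels overlapped in all groups, and their part in the values of the members was not tested.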

How the data were processed

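Raw counts per gene symbol were deposited by the authors for 12 libraries of RCC4 cells. According to the labels, the methods and the processing notes of the submitters, the authors made poly(A) libraries with a directional kit, trimmed reads with Trim Galore (0.3.3), aligned them to hg19 with HISAT2 (2.05), dropped non-unique fragments with Picard (2.0.1) and counted with HTSeq (0.5.4p3) in intersection-strict mode. The strand setting of the counting is not given in the sources used here. Genes that overlap on opposite strands are therefore less certain. For close paralogs (WNT5A and WNT5B, LRP5 and LRP6, the Frizzled genes), any effect of dropping non-unique fragments on their counts was not tested.

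Titles of the samples gave the groups and the replicate numbers. On the deposited counts, edgeR (4.0.16, R 4.3.3) was run with its quasi-likelihood test: TMM factors, the expression filter of edgeR with a minimum count of 10, all 12 libraries, replicate number as a block as in the study's methods, and Benjamini-Hochberg adjustment over 13000 genes at a threshold of 0.05. A total of 5 comparisons were fitted. Standard errors are those of the fitted contrast with the moderated quasi-dispersion, and 95% intervals use its degrees of freedom. Ratios within replicates used log2(CPM + 0.5). The test was also run on simulated data, whose outcome is not given here, so nothing is drawn from it. Libraries of 1 group differed by more than sampling noise, so none was merged. Libraries with the same number had deviations from their group means that correlated at 0.0963 to 0.738 across genes, against -0.642 to 0.441 for different numbers. The lowest value was under 0.1, so the block rests on the study's methods and not on this check.

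The 10 members and the lists of pathway genes and markers were chosen with earlier results of these data known. By rule, the text names the members, listed pathway genes with an adjusted p under 0.05 in any comparison, the 5 genes most like WNT2B and RSPO3, HIF1A and EPAS1. ST7L was added for its overlap, and the other R-spondins and LGR receptors, the markers and genes called in an alternative were named after their values were seen. Lengths, GC content and overlaps came from GENCODE 44 and promoters from RefSeq.

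The alternatives were DESeq2 size factors, no filter, at least 10 counts in every library, no block, DESeq2 (1.42.0), the 9 libraries without the double knockdown, the 6 libraries compared, and each replicate number and library left out. A correction for GC content and length, known for 90.0% of genes tested, was chosen after seeing the data. Counting intervals and floors cover counting error only.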

Additional observations from a re-analysis of the deposited data

How the results depend on the processing

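Without the replicate block, the count of members that passed in the double knockdown was 1 in place of 3, and the count of other Wnt pathway genes was 0 in place of 11 for the double knockdown, 0 in place of 1 for HIF2A siRNA and 0 in place of 4 between the single siRNAs. With HIF1A siRNA, members that passed numbered 0, and 1 with no filter or with DESeq2, with 0 to 1 when replicates or libraries were left out. The other Wnt genes numbered 0, 2 with DESeq2, 1 after removal of the GC and length trend, and 0 to 2 with libraries left out. With HIF2A siRNA the other Wnt genes numbered 1, 3 with no filter, with DESeq2 or after the GC and length trend was removed, 0 in a fit of 9 or of 6 libraries, and 0 to 3 with libraries left out. In the double knockdown they numbered 11, 19 in a fit of the 6 libraries compared, and 2 to 14 with libraries left out, while members numbered 1 to 3. Between the single siRNAs the 4 became 1 to 4 with libraries left out. The cause of these differences was not tested. Where a whole group is cut to 1 or 2 libraries, the fit assumes that they vary like the other groups.

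The background moved too. Against control siRNA, 181 genes were called under HIF1A siRNA, 26 under HIF2A siRNA and 1336 in the double knockdown, and 249 between the single siRNAs. With DESeq2 they numbered 298, 82, 1850 and 434, and without the block 47, 2, 195 and 55. For HIF2A siRNA they numbered 55 with no filter, 11 and 3 in a fit of 9 or 6 libraries and 49 after removal of the GC and length trend, for which the single siRNAs differed at 376 genes. In the double knockdown they numbered 2609 with 6 libraries, and 302 without replicate 3. The interaction numbered 4 genes with no filter and 3 after removal of the trend. With DESeq2 size factors, levels per kilobase in control siRNA stayed within 1 SD of the main values. The block and the test do not enter these levels, and leaving out 1 of 3 libraries cannot move a mean by 1 SD. The depth limits DKK1, RSPO3 and AXIN2, whose libraries held at most 3, 38 and 50 counts.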
